A study of Arabidopsis thaliana with 6 samples.

Results

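Among the genes of rosette leaves that the array annotation names only by a locus code, 39 stood at least 4-fold higher in Arabidopsis thaliana line A6 than in wild type, with no overlap between the lines. They were chosen on these values: a probe set had to pair with 1 gene named by a locus code, the mean of 3 A6 values had to lie at least 2 log2 units above the mean of 3 wild-type values, and the lowest A6 value had to lie above the highest wild-type value. Genes AT2G43580 to AT2G43620, AT5G52740 to AT5G52760 and AT1G65490 to AT1G65510, which met the same rule in 5 probe sets, were left out. The 39 genes, each with 1 probe set, come from 11933 probe sets named by a locus code and from 22746 probe sets in all. Both numeric conditions together were met by 127 probe sets (0.558%), of which 70 are not in the annotation used here and 13 belong to genes with a symbol.

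The arrays were Affymetrix ATH1, on which each probe set holds several short probes designed against the same transcript. Leaves 3 to 6 of plants 3 weeks old were used, 3 samples a line, and the plants were kept at 20 °C in days of 20 h light followed by 4 h darkness. The labels give the lines only as A6 and wild type and call the replicates biological; whether plants were pooled is not given. The study is known, and its title says, to concern a plant deficient in N6-adenosine methylation: A6 is known as an mta mutant rescued through embryo development by MTA, the methyltransferase subunit, under the embryo-active ABI3 promoter. A6 is the only mutant line, so low methylation and other features of the line cannot be told apart, and the arrays measure transcript level and not methylation. The level of MTA itself is not analysed here.

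A locus code without a symbol means that the annotation gave the gene no name of its own, not that nothing is known of it. As background to the families named below, receptor-like kinases at the cell surface and TIR-domain proteins inside the cell detect microbes or damage, calcium-binding proteins relay the calcium signal that follows, and enzymes make defence compounds such as the coumarin scopoletin and signals of systemic resistance such as pipecolic acid. Secreted proteins then act in the cell wall space. The roles below are background from general knowledge, and no role is given where it was not certain.

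Each value is log2, centred so that the median of the 6 arrays is 0 for every probe set. It therefore gives differences between arrays and no level, so the genes cannot be ordered by abundance and the leaf label could not be checked by the level of leaf genes. Where the lines do not overlap, this centring puts the lowest A6 value and the highest wild-type value at equal distance on either side of 0, and their separation, called the gap here, is the part of the difference that every pair of arrays shows. Over the 39 genes the median difference was 2.28 log2 units and the median gap 1.60. In whole leaves, more RNA of a gene per cell and more cells of a type that holds it cannot be told apart. Because the same contrast chose the genes, their differences are described without a test.

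**Figure D1:**
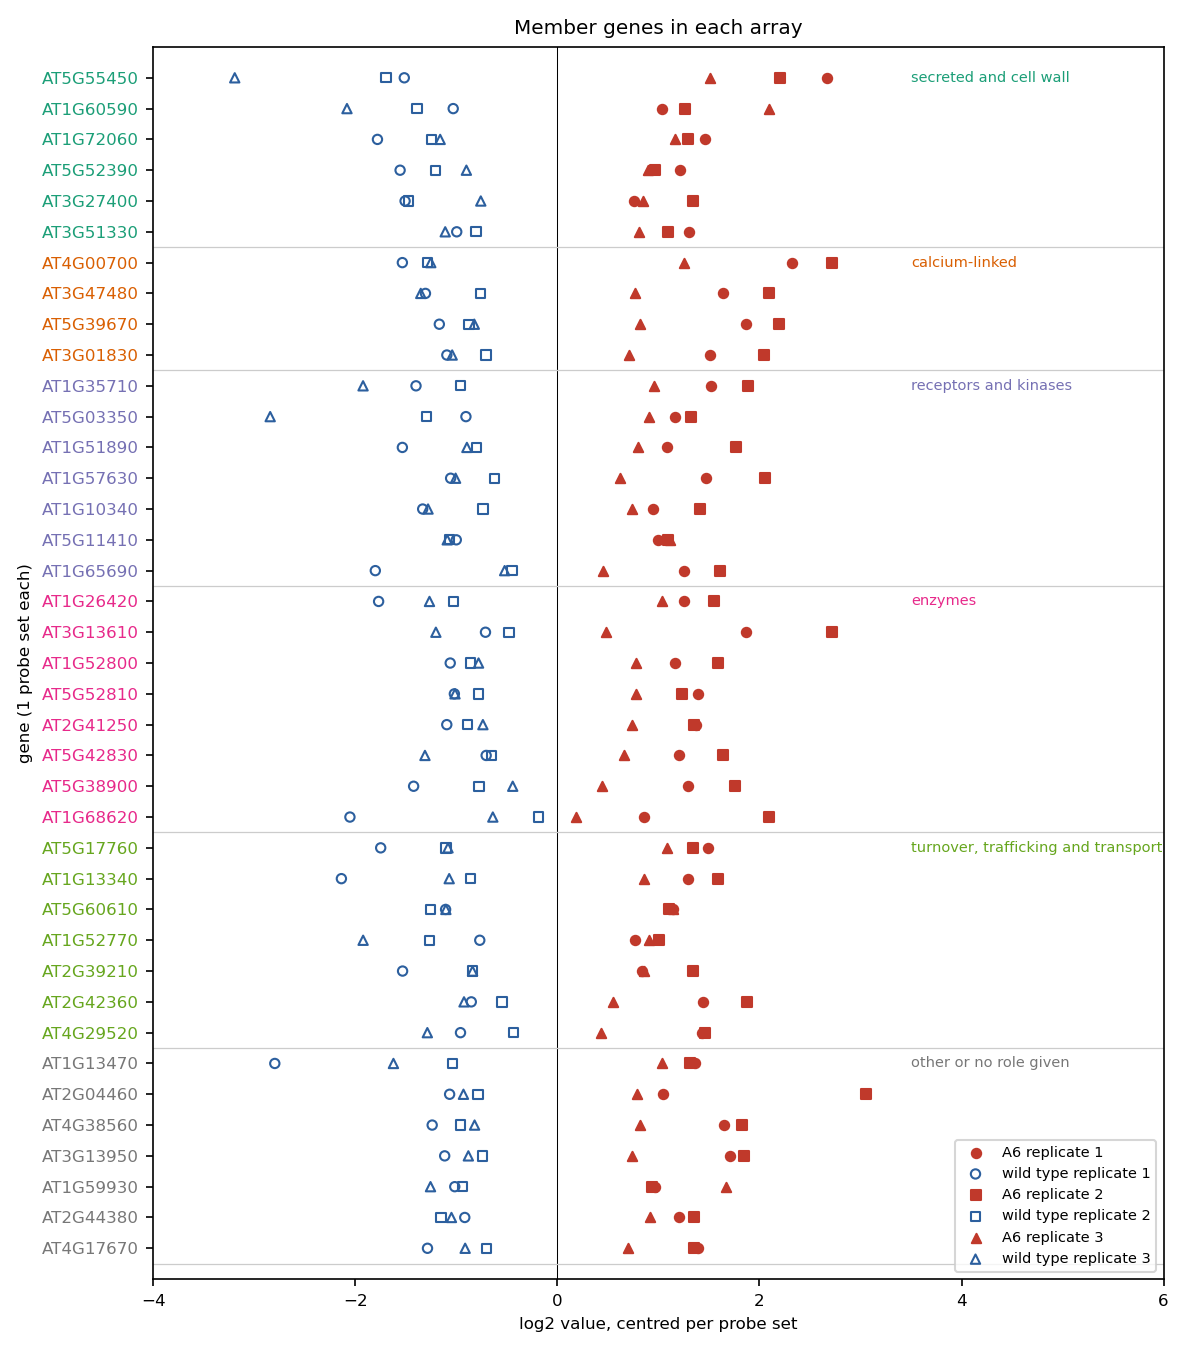
Centred log2 values (x axis) of the 39 genes (y axis) in each of the 3 A6 arrays (filled red) and 3 wild-type arrays (open blue), with the marker shape giving the replicate and the label colour the role group. Every A6 point lies to the right of 0 and every wild-type point to the left, and the distance of the inner points from 0 varies from 0.19 for AT1G68620 to 1.52 for AT5G55450.

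Secreted and cell wall proteins included the gene with the largest difference. AT5G55450, a lipid transfer protein of the small cysteine-rich secreted kind, had A6 values of 2.67, 2.20 and 1.52 and wild-type values of -1.52, -1.70 and -3.19, in the order of replicates 1, 2 and 3, which is kept throughout. Its A6 mean was 2.13 ± 0.58 (SD, n = 3) and its wild-type mean -2.13 ± 0.92 (SD, n = 3), a difference of 4.26 log2 units or 19.2-fold. The gap of 3.03 was the widest of the 39 genes, and wild-type replicate 3 lay 1.497 below the next wild-type array.

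AT1G60590, a pectin lyase-fold protein related to polygalacturonases, which cut the pectin of cell walls, had A6 values of 1.03, 1.27 and 2.09 and wild-type values of -1.03, -1.39 and -2.08. It was 7.81-fold higher in A6 (2.96 log2 units), and A6 replicate 3 was its highest array. AT3G27400, a pectate lyase-like protein, had A6 values of 0.76, 1.34 and 0.85 and wild-type values of -1.51, -1.48 and -0.76. The rule required both pectin-related genes to be higher in A6 in all arrays, and a different A6 array was on top in each.

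AT1G72060, a small inhibitor of serine endopeptidases, had tight values of 1.46, 1.29 and 1.16 in A6 and of -1.78, -1.25 and -1.16 in wild type, a 6.50-fold difference. AT5G52390, of the PAR1 family, was 4.74-fold higher, with A6 values of 1.21, 0.96 and 0.90 and wild-type values of -1.56, -1.21 and -0.90. AT3G51330, an aspartic protease, was 4.11-fold higher, with A6 values of 1.31, 1.09 and 0.81 and wild-type values of -0.996, -0.81 and -1.11. The 6 genes of secreted and cell wall proteins had a median difference of 2.47 log2 units, and none had a gap under 1.52.

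The 4 calcium-linked genes shared a pattern within A6 that many of the other genes also showed. AT4G00700, whose protein carries C2 domains, which bind calcium and lipid, had A6 values of 2.32, 2.72 and 1.25 and wild-type values of -1.53, -1.28 and -1.25. At 10.9-fold (3.45 log2 units) it had the second largest difference, and its wild-type SD was 0.15 against 0.76 in A6. AT3G47480, an EF-hand protein, had A6 values of 1.64, 2.09 and 0.76 and wild-type values of -1.31, -0.76 and -1.35, a 6.23-fold difference. The calmodulin-like genes AT5G39670 and AT3G01830 also encode EF-hand proteins.

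For AT5G39670 the A6 values were 1.87, 2.19 and 0.82 and the wild-type values -1.17, -0.87 and -0.82, a 5.98-fold difference. For AT3G01830 the A6 values were 1.52, 2.04 and 0.71 and the wild-type values -1.09, -0.71 and -1.04, a 5.17-fold difference. In all 4 genes A6 replicate 2 was the highest and replicate 3 the lowest, and these arrays differed by 1.33 to 1.46 log2 units. The wild-type SDs of the 4 genes ran from 0.15 to 0.33, below their A6 SDs of 0.67 to 0.76.

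The group called receptors and kinases here is a loose one of 7 genes. Besides kinases, the group holds a TIR-domain, a legume-lectin-domain, an ankyrin-repeat and an NDR1/HIN1-like protein. The largest difference in the group was that of AT1G35710, a leucine-rich repeat receptor-like kinase. It had A6 values of 1.52, 1.89 and 0.96 and wild-type values of -1.40, -0.96 and -1.92, a 7.38-fold difference (2.88 log2 units). AT1G51890, a leucine-rich repeat receptor-like kinase of subfamily I, had A6 values of 1.09, 1.77 and 0.80 and wild-type values of -1.53, -0.80 and -0.90, a 4.90-fold difference. In both kinases A6 replicate 2 was highest and A6 replicate 3 lowest, as in the calcium-linked genes.

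AT1G57630, a TIR-domain protein, followed the same order within A6, with values of 1.47, 2.06 and 0.62 against -1.06, -0.62 and -1.01 in wild type, a 4.85-fold difference. AT5G03350, a legume-lectin-domain protein known to be induced by salicylate, had A6 values of 1.16, 1.32 and 0.91 and wild-type values of -0.91, -1.29 and -2.84. Its 7.02-fold difference (2.81 log2 units) leaned on wild-type replicate 3, and it was 2.23 without that array. AT1G10340, an ankyrin-repeat protein, had A6 values of 0.95, 1.41 and 0.74 and wild-type values of -1.33, -0.74 and -1.28.

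AT1G65690, an NDR1/HIN1-like protein of a family with roles at the plasma membrane, had A6 values of 1.25, 1.61 and 0.45 and wild-type values of -1.80, -0.45 and -0.52. It was 4.08-fold higher in A6 with a gap of only 0.90. AT5G11410, of the protein kinase superfamily, behaved differently: its A6 values were 1.001, 1.10 and 1.11 and its wild-type values -1.001, -1.07 and -1.09. The gap of 2.001 made up nearly all of its difference of 2.12 log2 units, and the SD was 0.061 in A6 and 0.047 in wild type.

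The 8 enzyme genes had differences from 2.007 to 2.63 log2 units, with a median of 2.07. AT1G26420, a berberine-bridge-enzyme-like oxidase, led them with A6 values of 1.25, 1.55 and 1.03 and wild-type values of -1.77, -1.03 and -1.27, a 6.20-fold difference. The related gene AT1G26390 was kept out only by overlap. It had A6 values of 0.72, 2.62 and -0.61 and wild-type values of -2.49, 0.61 and -1.81, so that wild-type replicate 2 exceeded A6 replicate 3 by 1.21 although the means differed by 2.14. AT1G26380, of the same gene run and named here after its values were seen, had a difference of 1.96, with A6 values of 0.62, 1.26 and 0.64 and wild-type values of -1.69, -1.05 and -0.62. The A6 SDs of the 3 genes were 0.26 for AT1G26420, 1.62 for AT1G26390 and 0.36 for AT1G26380. AT1G26390 was named because its lines overlapped, so its wide spread follows from that choice and nothing is read from it.

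AT3G13610 (F6'H1) encodes feruloyl-CoA 6'-hydroxylase, which makes the precursor of scopoletin. Its A6 values of 1.86, 2.71 and 0.48 spread over 2.24 log2 units, against wild-type values of -0.71, -0.48 and -1.20, and its mean difference was 2.48 (5.59-fold). The gap of 0.96 shows how near A6 replicate 3 lay to wild type. AT5G52810 (SARD4), a reductase in the synthesis of pipecolic acid, was more even: its A6 values were 1.39, 1.23 and 0.78 and its wild-type values -1.02, -0.78 and -1.01, a 4.21-fold difference with a gap of 1.56.

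AT1G52800, of the 2-oxoglutarate-dependent oxygenases, had A6 values of 1.16, 1.59 and 0.78 and wild-type values of -1.06, -0.86 and -0.78. AT5G42830, of the BAHD acyltransferases, a family that modifies specialised metabolites, had A6 values of 1.20, 1.64 and 0.66 and wild-type values of -0.70, -0.66 and -1.31. AT2G41250, a haloacid dehalogenase-like hydrolase, had A6 values of 1.38, 1.35 and 0.74 and wild-type values of -1.09, -0.89 and -0.74. In each of these 3 genes A6 replicate 3 was the lowest A6 array.

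AT5G38900, a DSBA-type oxidoreductase of the thioredoxin superfamily, had A6 values of 1.30, 1.76 and 0.44 and wild-type values of -1.42, -0.78 and -0.44, a gap of 0.88. AT1G68620, a carboxylesterase-like hydrolase, had the narrowest gap of the 39 genes, 0.37. Its A6 values were 0.86, 2.09 and 0.19 and its wild-type values -2.05, -0.19 and -0.64, so both lines spread widely (SD 0.97 in each).

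Genes of protein turnover, trafficking and transport had differences from 2.004 to 2.62. AT5G17760, an AAA-type ATPase, had A6 values of 1.49, 1.35 and 1.08 and wild-type values of -1.75, -1.10 and -1.08, a 6.14-fold difference. AT1G13340, an IST1-like protein of the sorting into multivesicular bodies, had A6 values of 1.29, 1.59 and 0.86 and wild-type values of -2.14, -0.86 and -1.07, a 6.08-fold difference. AT2G42360, a RING-H2 ubiquitin ligase of the ATL family, had A6 values of 1.44, 1.88 and 0.55 and wild-type values of -0.85, -0.55 and -0.92. Here too A6 replicate 3 was the lowest A6 array in each of the 3 genes. It was not the lowest in AT5G60610, AT1G52770 or AT2G39210 of the same group.

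AT5G60610, an F-box protein, was the other gene with nearly flat values within each line. It had A6 values of 1.15, 1.10 and 1.15 and wild-type values of -1.11, -1.26 and -1.10, a 4.89-fold difference. The pooled within-line SD was 0.065 for AT5G60610 and 0.054 for AT5G11410, and these were the only 2 of the 39 genes under 0.1. AT1G52770, an NPH3 family protein, had A6 values of 0.77, 1.01 and 0.90 and wild-type values of -0.77, -1.26 and -1.92, even in A6 and graded in wild type.

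AT2G39210, a transporter of the major facilitator superfamily, had A6 values of 0.84, 1.34 and 0.85 and wild-type values of -1.53, -0.84 and -0.84. AT4G29520 (SES1), a chaperone of the endoplasmic reticulum, had A6 values of 1.43, 1.46 and 0.44 and wild-type values of -0.96, -0.44 and -1.29. With a difference of 2.004 (4.01-fold) AT4G29520 stood just inside the threshold, followed by AT1G68620 (2.007) and AT1G65690 (2.03). Just outside it lay AT3G51440 (1.98), AT4G03450 (1.98) and AT4G23610 (1.96), whose lines did not overlap either.

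The remaining 7 genes have looser or no descriptions. AT1G13470, of the DUF1262 family, had A6 values of 1.36, 1.31 and 1.04 and wild-type values of -2.80, -1.04 and -1.62, an 8.34-fold difference (3.06 log2 units). AT4G38560, a PEARLI4-like protein, had A6 values of 1.65, 1.83 and 0.82 and wild-type values of -1.24, -0.96 and -0.82, a 5.43-fold difference. AT5G55450, AT4G00700 and AT1G13470 were the 3 genes that stood at least 8-fold higher.

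AT2G04460, which RefSeq lists as a pseudogene, had values of 1.04, 3.06 and 0.79 in A6 and of -1.07, -0.79 and -0.93 in wild type. A6 replicate 2 alone lay 2.01 above the next array, and without it the difference was 1.84 in place of 2.56. AT3G13950 had A6 values of 1.71, 1.85 and 0.74 and wild-type values of -1.12, -0.74 and -0.88, a 5.09-fold difference. AT1G59930, the only gene of the 39 measured by a probe set whose suffix marks probes shared with other sequences, had A6 values of 0.97, 0.94 and 1.67 and wild-type values of -1.02, -0.94 and -1.26.

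AT2G44380, a cysteine- and histidine-rich C1-domain protein, had A6 values of 1.21, 1.35 and 0.92 and wild-type values of -0.92, -1.15 and -1.05, a 4.58-fold difference with SDs of 0.22 and 0.12. AT4G17670, an FLZ zinc-finger protein, had A6 values of 1.39, 1.35 and 0.70 and wild-type values of -1.29, -0.70 and -0.91. The 7 genes had differences from 2.11 to 3.06 log2 units.

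**Figure D2:**
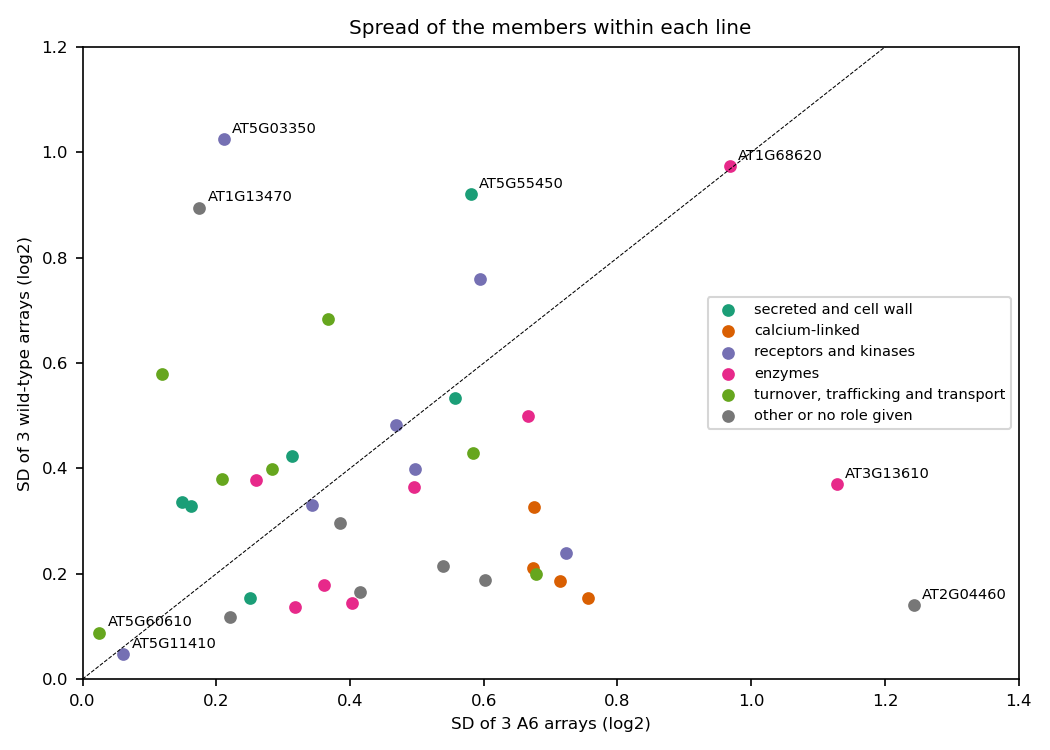
SD of the 3 A6 arrays (x axis) against the SD of the 3 wild-type arrays (y axis), in log2 units, 1 point a gene, coloured by role group, with a dashed line where both are equal. AT5G60610 and AT5G11410 lie near the origin, AT2G04460 and AT3G13610 spread most in A6, and AT5G03350, AT5G55450 and AT1G13470 spread more in wild type.

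Most of the genes shared the lowest A6 array, which their selection did not require. A6 replicate 3 was the lowest A6 array for 32 of the 39 genes and A6 replicate 2 the highest for 26. Over the 1143 probe sets called higher in A6 these arrays took the same places in 59.4% and 52.6%, and over all 22746 probe sets in 32.3% and 32.6%. In wild type, replicate 1 was the lowest array for 24 genes and replicate 2 the highest for 21, places they took in 39.6% and 42.8% of the called probe sets and in 36.8% and 26.1% of all. In replicate order, the median of the 39 genes was 1.30, 1.55 and 0.82 for A6, and -1.17, -0.86 and -1.07 for wild type.

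The step from A6 replicate 3 up to A6 replicate 2 measured 0.69 log2 units in the median gene and ran from -0.83 to 2.27, with 35 of 39 genes above 0 and 14 at 1 or more. By role group its median was 1.35 for the calcium-linked genes, 0.93 for receptors and kinases, 0.90 for enzymes, 0.65 for genes with other or no role, 0.48 for turnover, trafficking and transport, and 0.21 for secreted and cell wall proteins. The groups hold 4 to 8 genes each, and most of their ranges overlap. The step ran from 1.33 to 1.46 in calcium-linked genes, -0.02 to 1.44 in receptors and kinases and 0.45 to 2.24 in enzymes. With other or no role it ran from -0.73 to 2.27. It ran from -0.04 to 1.33 in turnover, trafficking and transport and from -0.83 to 0.69 in secreted and cell wall proteins. The order of the groups was not tested. AT1G60590, AT1G59930, AT5G60610 and AT5G11410 were the 4 genes with A6 replicate 3 above replicate 2. The A6 SD exceeded the wild-type SD in 24 of the 39 genes, with medians of 0.42 and 0.33. Over all probe sets the median SDs were 0.12 and 0.15.

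**Figure D3:**
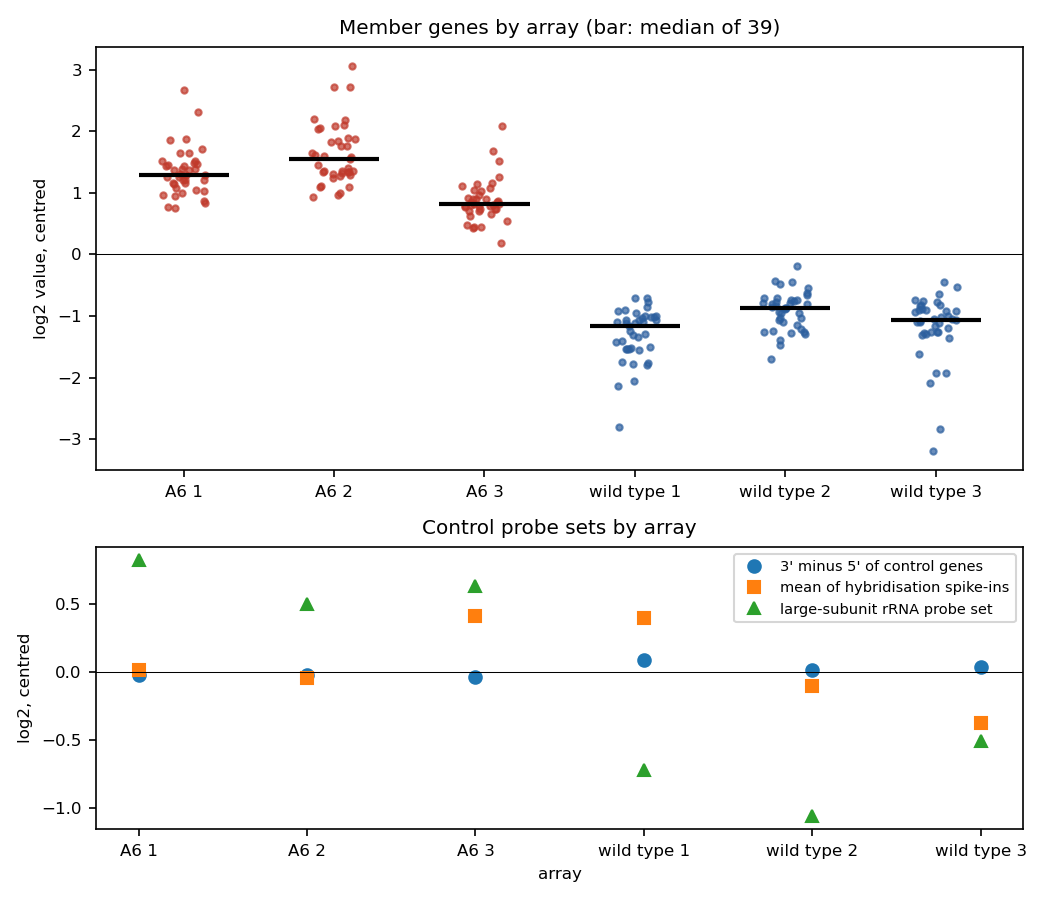
Upper panel: centred log2 values of the 39 genes (y axis) in each array (x axis), 1 point a gene with small random sideways shifts and a bar at the median, which is lowest within A6 in replicate 3 (0.82). Lower panel: control probe sets in the same arrays, with the 3' minus 5' difference, the mean of the hybridisation spike-ins and the large-subunit rRNA probe set, the last of which is above 0 in each A6 array and below 0 in each wild-type array.

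Control probe sets also differed between arrays. The mean 3' minus 5' difference of actin, GAPDH and ubiquitin probe sets, a sign of RNA quality, had A6 values of -0.022, -0.021 and -0.033 and wild-type values of 0.091, 0.016 and 0.041, so it separated the lines. The probe set of the large-subunit ribosomal RNA separated them as well, with A6 values of 0.83, 0.51 and 0.64 and wild-type values of -0.72, -1.06 and -0.51, and so did the 3' probe set of GAPDH, with A6 values of 0.35, 0.41 and 0.074 and wild-type values of -0.28, -0.074 and -0.40. Over all 22746 probe sets the lines did not overlap, in either direction, in 29%, so a control that separates them is not unusual here. The part of the rRNA and GAPDH probe sets in the differences was not tested. Hybridisation spike-ins were highest in A6 replicate 3 (0.41) and wild-type replicate 1 (0.40), against -0.37 to 0.019 in the other arrays. Without both of these arrays, an alternative chosen after the data were seen, the median difference of the 39 genes was 2.41 and 36 of them remained at 4-fold or more. Because the genes were chosen on the same values, this does not test the part of the spike-ins.

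With the line as the only term, limma called 38 of the 39 genes at an adjusted p under 0.05, where 9.77% of all probe sets were called and 5.03% were called higher in A6. Nothing is read from that count, since the genes were chosen on the same contrast. The 1 gene not called was AT1G68620. Leaving out 1 array at a time, 34 to 38 genes were called and 34 were called in every case. Besides AT1G68620, the genes AT2G04460 and AT3G13610 lost the call when A6 replicate 1 or either of wild-type replicates 2 and 3 was left out. AT1G65690 lost it when A6 replicate 1 or 2 was left out, and AT5G38900 when A6 replicate 1 was.

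With the 3' minus 5' difference as a covariate, 11 of the 39 genes were called, against 1.27% of all probe sets. The estimated difference stayed positive for each gene, was lower than without the covariate for 29 and at least 2 for 23, and its median was 2.11. It was lowest for AT1G68620 (0.41) and AT1G65690 (0.82). AT1G13470 went from 3.06 to 1.40 and AT1G13340 from 2.60 to 1.43, while AT5G55450 went from 4.26 to 4.94, AT5G03350 from 2.81 to 3.60 and AT1G52770 from 2.21 to 2.87. The 11 genes were AT5G55450, AT1G72060, AT5G52390 and AT3G51330 of the secreted and cell wall group, AT1G26420 and AT5G52810 of the enzymes, AT5G17760, AT5G60610 and AT1G52770 of turnover, trafficking and transport, AT5G11410 of the receptors and kinases, and AT2G44380. None of the 4 calcium-linked genes was called, with differences of 2.25 to 3.44. Their limma SEs were 0.30 to 0.33 without the covariate and 0.61 to 0.66 with it. Since the covariate itself separated the lines, the fit can tell line and covariate apart only in part. Which genes kept a call therefore does not rank them by dependence on RNA quality.

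**Figure D4:**
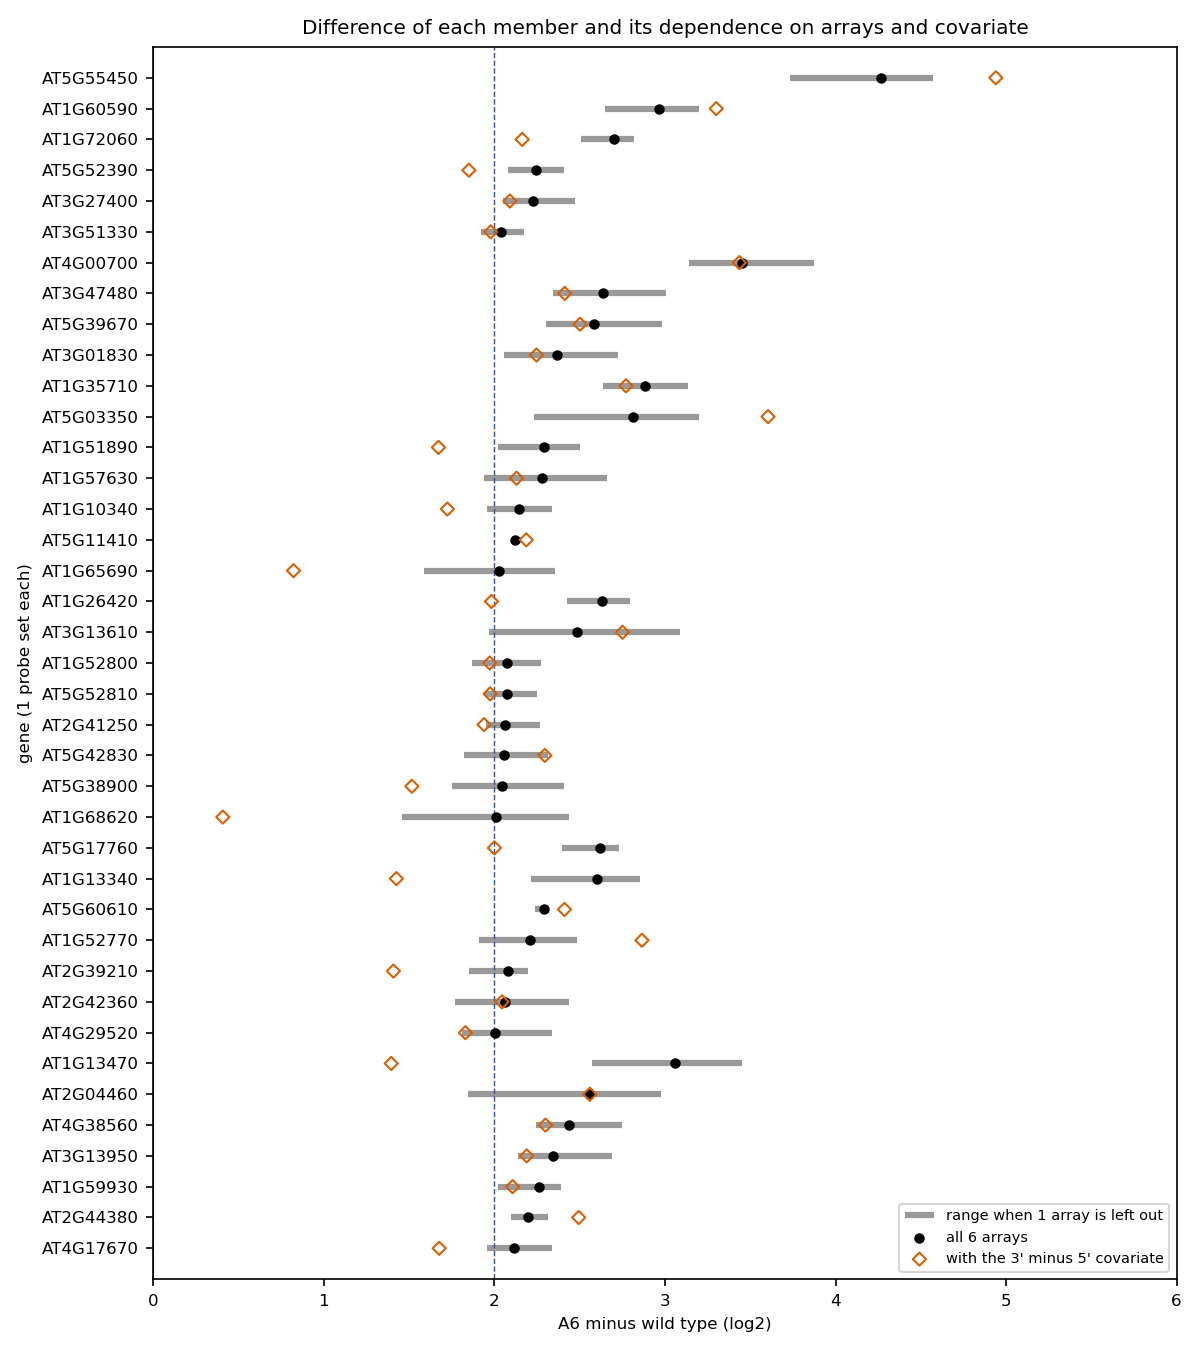
A6 minus wild type in log2 units (x axis) for each of the 39 genes (y axis), from all 6 arrays (black points), with the range when 1 array is left out (grey bars) and with the 3' minus 5' covariate (open diamonds); the dashed line marks 2. The bars are shortest for AT5G11410 and AT5G60610, and the diamonds of AT1G68620 and AT1G65690 fall below 1.

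Relatives of the 39 genes were looked at through 5 gene lists, 4 of families and 1 of markers, from which the 39 genes themselves were left out. Measured here means that the annotation pairs a probe set with that gene alone, and a gene without one may still be on the array. Leucine-rich repeat receptor kinases of subfamily I, the family of AT1G51890, had 32 other measured genes of 41 listed, of which 2 rose, 2 fell and 28 did not pass, beside 5.03% of all probe sets called higher and 4.74% called lower. The counts in this list and in those that follow are few, and are given as a description beside these shares. AT5G59670 rose by 1.93 log2 units (SE 0.22, limma adjusted p = 0.00258), with A6 values of 0.99, 1.18 and 0.70 and wild-type values of -0.74, -0.70 and -1.49. AT1G51860 rose by 1.77 (SE 0.20, limma adjusted p = 0.0022), with A6 values of 1.08, 1.49 and 0.64 and wild-type values of -0.77, -0.64 and -0.70.

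AT3G46370 fell by 0.86 log2 units (SE 0.13, limma adjusted p = 0.00787) and AT1G51805 by 0.83 (SE 0.11, limma adjusted p = 0.00373). None of the 4 genes was called with the 3' minus 5' covariate. The median of the 32 genes was -0.01, beside -0.02 over all probe sets.

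TIR-domain genes, the family of AT1G57630, had 66 other measured genes of 96 listed, of which 3 rose, 1 fell and 62 did not pass, where 9.77% of all probe sets were called, with a median of 0.002. AT2G20142 rose by 1.96 (SE 0.22, limma adjusted p = 0.00215), with A6 values of 1.44, 1.39 and 0.66 and wild-type values of -0.66, -0.69 and -1.03, just short of 4-fold. AT3G44400 rose by 0.75 (SE 0.18, limma adjusted p = 0.0376) and AT4G23440 fell by 0.56 (SE 0.14, limma adjusted p = 0.0406). AT5G58120 was the other gene that rose (0.64). The call of AT4G23440 was lost whichever array was left out (limma adjusted p 0.0537 to 0.112) and with the replicate block (limma adjusted p = 0.0522). The call of AT3G44400 was lost without any of 4 arrays, all but A6 replicate 3 and the first wild-type array (limma adjusted p up to 0.133). The call of AT5G58120 was lost without any A6 array or the third wild-type array (limma adjusted p up to 0.0878). The list had 1 call when A6 replicate 1, A6 replicate 2 or the third wild-type array was left out, and 2 calls when A6 replicate 3 was.

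Lipid transfer proteins and relatives of the same fold, the family of AT5G55450, had 28 other measured genes of 61 listed, of which 3 rose, 2 fell and 23 did not pass, again beside 9.77% called over all probe sets, with a median of -0.01. AT4G12490 rose by 1.56 (SE 0.38, limma adjusted p = 0.0411), AT1G62790 by 0.80 (SE 0.15, limma adjusted p = 0.0143) and AT4G33550 by 0.62. AT1G48750 fell by 1.23 (SE 0.16, limma adjusted p = 0.00427) and AT5G05960 by 1.15 (SE 0.21, limma adjusted p = 0.013). In AT4G12490 wild-type replicate 3 (-0.20) lay near the lowest A6 array (0.20), and without 1 array its adjusted p from limma ran from 0.0223 to 0.127, and it was called only when the first or the third wild-type array was left out. The call of AT4G33550 was lost without any A6 array or the third wild-type array (limma adjusted p up to 0.0862), and with the replicate block (limma adjusted p = 0.0551). AT1G62790 lost its call without A6 replicate 1 or the second wild-type array (up to 0.0641 by limma), and AT5G05960 without A6 replicate 1 or 2 (up to 0.0569 by limma). The list had 1 call without A6 replicate 1, 2 without A6 replicate 2 and 3 without wild-type replicate 2.

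Of 40 listed cysteine-rich receptor-like kinases only 1 was measured under a name: AT4G28670 had a difference of -0.31 (SE 0.10, limma adjusted p = 0.0876), with 1 of 1 at an unadjusted p under 0.05. Of 30 listed markers of root, seed, meristem, stomatal lineage and vasculature, 9 were measured, with differences from -0.23 to 0.15. Limma called 0 of them, where 9.77% of all probe sets were called, and 0 had an unadjusted p under 0.05. With so few genes a count of 0 shows little. The share of all probe sets at that unadjusted threshold is not given here, so nothing is read from either unadjusted count. The root genes PYK10, EXPA7 and EXPA18 had differences of -0.12, -0.13 and -0.06, and the stomatal genes SPCH, MUTE and FMA had -0.10, -0.15 and 0.15. With the 3' minus 5' covariate 0 genes of any list were called by limma.

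The genes next to the 39 on the chromosome, by the order of protein-coding genes in RefSeq, were described in the same way. Of 78 such neighbours 32 were measured in the sense given above, and none was itself one of the 39. The others may still be on the array. Limma called 2 higher and 1 lower, and 29 did not pass, where 9.77% of all probe sets were called. The median difference was 0.004, and with the 3' minus 5' covariate 0 neighbours were called. AT1G26410, beside AT1G26420 and of the same oxidase family, rose by 1.03 (SE 0.16, limma adjusted p = 0.00723), with A6 values of 0.54, 0.96 and 0.35 and wild-type values of -0.46, -0.35 and -0.44.

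AT2G42350, beside AT2G42360 and like it a RING-H2 gene of the ATL family, rose by 0.61 (SE 0.12, limma adjusted p = 0.0167). Among neighbours a family is given here only for AT1G26410 and AT2G42350, so nothing is read from their sharing one. AT1G13460, beside AT1G13470, fell by 0.47 (SE 0.11, limma adjusted p = 0.0391), but did not pass with the replicate block (limma adjusted p = 0.076). Its call was kept only when the first wild-type array was the one left out, with a limma adjusted p of up to 0.146 otherwise. AT2G42350 lost its call without A6 replicate 1 or 2, or the second or the third wild-type array (limma adjusted p up to 0.0838). AT5G11400, the measured neighbour of the flat gene AT5G11410, had a difference of -0.01. The number of neighbours called was 1 when A6 replicate 1 or 2, or wild-type replicate 2 or 3, was left out, and 5 when wild-type replicate 1 was.

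Among the 39 themselves, only 2 pairs lay within 20 genes of each other. AT1G52770 and AT1G52800 were 3 genes apart, and the measured genes AT1G52790 and AT1G52810 on either side of AT1G52800 had differences of -0.04 and 0.18. AT1G13340 and AT1G13470 were 13 genes apart. Wild-type replicate 1 was the lowest array of both, as it was the lowest wild-type array for 24 of the 39 genes.

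**Figure D5:**
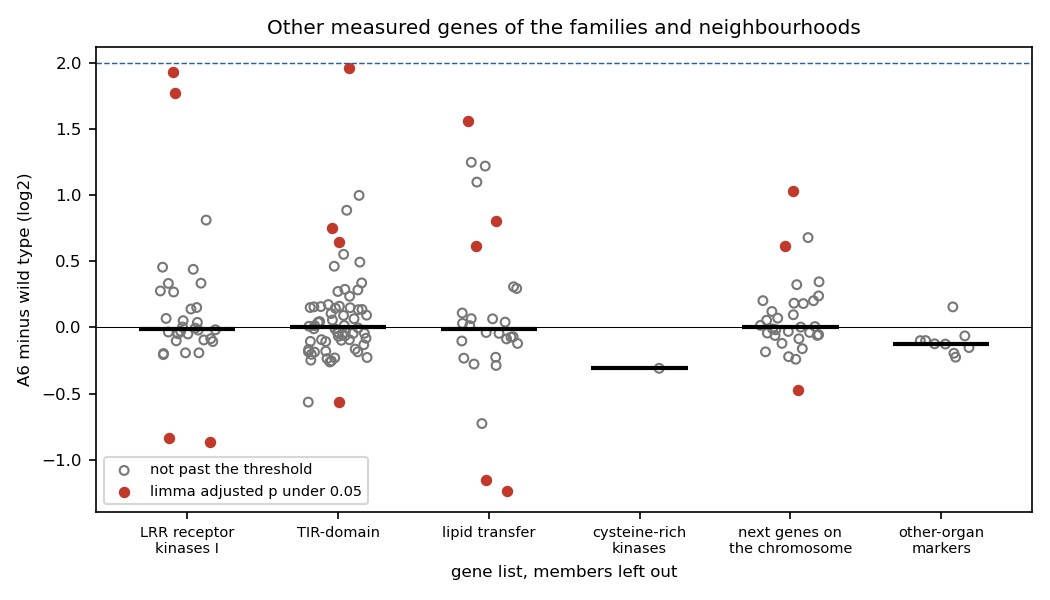
A6 minus wild type in log2 units (y axis) for the measured genes of 6 sets (x axis) after the 39 genes were left out, 1 point a gene, filled where limma's adjusted p was under 0.05, with a bar at the median and a dashed line at 2. The bars lie near 0 except for the single cysteine-rich kinase, and called points lie on both sides of 0 in the 3 family lists with several genes and among the neighbours.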

How the data were processed

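The authors deposited 1 table of log2 values for 6 Affymetrix ATH1 arrays, which the submitters' processing notes say came from RMA; version and log base are not given in the sources used here, and base 2 is assumed because RMA gives log2. The deposited values were also centred, since the median of every probe set over the 6 arrays is 0 within 5e-07. Values ran from -3.74 to 7.13. No filter on dim probe sets or other background correction is possible on centred values.

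Probe sets were named from the platform annotation: of 22810, 64 are controls and were left out, 13513 pair with 1 gene, 503 with several and 8730 are not listed. RefSeq (TAIR10.1) matched 13436 of the 1-gene probe sets and all 39 genes, and served for names and neighbours only. A listed or neighbouring gene with several probe sets was represented by the plainest probe suffix, then the lowest number.

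Differences are A6 minus wild type. limma 3.58.1 (lmFit, eBayes) in R 4.3.3 was fitted over 22746 probe sets with line as its single term and two-sided p-values, with Benjamini-Hochberg adjustment at 0.05. The fit was tested on simulated data of this comparison (22746 probe sets): it found 71% of 100 changes of 1 log2 unit and 93% of 100 changes of 2, and called 11 unchanged probe sets. The number of arrays limits the precision. The covariate was the mean 3' minus 5' difference of 6 pairs of control probe sets.

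The genes, gene lists and tests were chosen with earlier results of these data known. All 39 genes are named, with the 3 just inside and outside the threshold, those kept out by overlap, and up to 3 called genes of each list by size; other genes named from the lists were chosen after their values were seen. A comparison with protein relatives, planned from sequence, was not run.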

Additional observations from a re-analysis of the deposited data

How the results depend on the processing

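The median difference of the 39 genes (2.28) stayed within 1.91 and 2.44 under every alternative run: 2.10 to 2.44 without 1 array, 2.28 with the replicate block, 1.91 after quantile normalization again, 2.30 with medians and 2.11 with the covariate. No gene changed sign. The rule fixed this for the settings without 1 array, with the block and with medians, because the lines do not overlap. The median is likewise drawn from the values that chose the genes. The number of probe sets meeting the rule (39) ran from 27 without A6 replicate 2 to 59 without A6 replicate 3, was 41 with medians and 40 with no condition on overlap, and was 17 after quantile normalization again, where the cause was not tested. All 39 genes still met the rule without A6 replicate 3 or wild-type replicate 2, 26 without A6 replicate 2.

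Of the 39 genes 34 to 38 were called without 1 array, 39 with the block or array weights, 11 with the 3' minus 5' covariate and 8 with the ordinary equal-variance test. Over all probe sets (2222) the count ran from 766 to 3484 without 1 array; it was 4691 with array weights, 290 with the covariate, 229 with the ordinary test and 3465 when both high spike-in arrays were left out, an alternative added after the data were seen. Calls without 1 array ran from 4 to 5 in the leucine-rich repeat kinase list, 1 to 4 in the TIR list, 1 to 6 in the lipid transfer list and 1 to 5 among neighbours, and were 0 in the cysteine-rich kinase and marker lists. Array weights gave 7, 6, 9 and 7 calls in the first 4 and 1 in the cysteine-rich kinase list, while the covariate and the ordinary test gave 0 in each. The cause was not tested.

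The labels do not say that a replicate number is shared between the lines. Deviations of same-numbered arrays correlated at -0.13, 0.18 and -0.16, and those of differently numbered arrays at -0.29 to 0.30. With only 3 arrays a line, these values cannot decide whether the arrays were paired. The replicate block gave 1526 calls over all probe sets and 5, 4, 4 and 2 in the leucine-rich repeat kinase, TIR, lipid transfer and neighbour sets. The comparison with protein relatives was not run because protein sequences were not used here.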
